A study of Triticum aestivum with 9 samples.

Results

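Grains of wheat plants moved to 40 °C for 1 h were compared with grains of plants that stayed at 20 °C. The comparison used 6 of the 9 sequenced samples, and it tested 46250 of the 133744 transcripts in the deposited tables. A transcript was tested when its mean FPKM (fragments scaled by transcript length and library total) was above 1 at 20 or at 40 °C. In total 12.1% of the tested transcripts were differentially expressed (DETs), with 7.54% higher and 4.54% lower at 40 °C.

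All plants were Triticum aestivum cv. Chinese Spring, a standard reference cultivar, raised in a greenhouse. Each plant entered a growth chamber 12 days after its first flower and adapted for 3 days at 20 °C under a 14/10 h day and night cycle. Heat was given as a direct move into a 40 °C chamber for 1 h of the light period, with no ramp, and grains from the main stem were sampled from heated and control plants alike. RNA of 3 plants per temperature was sequenced, so each p-value rests on 3 against 3 plants. The edgeR p-values also use a spread moderated over all tested transcripts. Heated plants changed chamber and controls did not, so temperature and the move cannot be told apart. The third group, at 30 °C, is used below only where a value needs it.

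Within minutes of a sharp rise in temperature, plant cells make large amounts of heat shock proteins, molecular chaperones that hold or refold damaged proteins. Heat stress transcription factors switch on their genes, many of which are nearly silent in unstressed tissue. Bread wheat is hexaploid, so most genes exist as homoeologous copies on the A, B and D subgenomes, and chaperone genes often lie in tandem arrays. The filling grain is dominated by starchy endosperm, whose most abundant transcripts encode storage proteins. The deposited identifiers (TraesCS) give the chromosome, the subgenome and the order of the genes, but apart from 2 families they carry no gene names. The transcripts are therefore described by position, level and response, and the labelled tissue was not checked against marker genes. In whole grains, fewer cells of a type cannot be told apart from less RNA per cell.

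The summed expected count was 16649548, 16294823 and 16205380 in control plants 1, 2 and 3 and 16175578, 19497182 and 17002702 in heated plants 1, 2 and 3. At these totals 3 fragments, the limit that a count of 0 allows, correspond to 0.154 to 0.185 CPM (counts scaled by the library total), which covers counting error only. Heated plant 3 stood apart from the other heated plants. Its 100 most abundant transcripts held 50.7% of the summed TPM (a length-corrected level scaled to a common total per sample), against 39.7% and 41.3% in heated plants 1 and 2 and 49.4 to 54.1% in the controls. It also had the fewest transcripts above an FPKM of 1. Its TMM factor, by which edgeR rescales a library, was 0.836, against 1.01 and 1.02 in heated plants 1 and 2. FPKM and TPM do not use this factor, so its rank among the heated plants below is a rank in FPKM only. The DET counts and several shares below are also given without heated plant 3.

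The response ran mostly upwards. Of 5583 DETs, 3485 were higher and 2098 were lower at 40 °C (edgeR quasi-likelihood test, FDR under 0.05 and a fold change above 2), so that 62.4% were higher. Without heated plant 3 the counts were 3283 higher and 2501 lower, and without control plant 1 they were 3100 higher and 1297 lower. The split depends on the scaling: scaled by library size in place of TMM factors, 2959 rose and 3091 fell, so that 48.9% rose, and the middle of all tested transcripts shifted by -0.14 on the log2 scale. The DETs belonged to 3350 genes with a higher and 2084 genes with a lower transcript, of 42782 genes tested.

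The DETs higher at 40 °C took a large share of the RNA pool. Together they held 1.84, 1.94 and 1.96% of the summed TPM in the 3 controls and 14.2, 14.0 and 11.4% in heated plants 1, 2 and 3. The DETs lower at 40 °C held 2.23, 1.85 and 2.01% in the controls and 0.740, 0.604 and 0.703% in the heated plants. These sets were chosen by the same contrast, so the shares are a description and carry no test. In FPKM, heated plant 3 was the lowest of the heated plants for 2144 of the 3485 higher DETs (61.5%), against 54.6% of all tested transcripts.

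**Figure D1:**
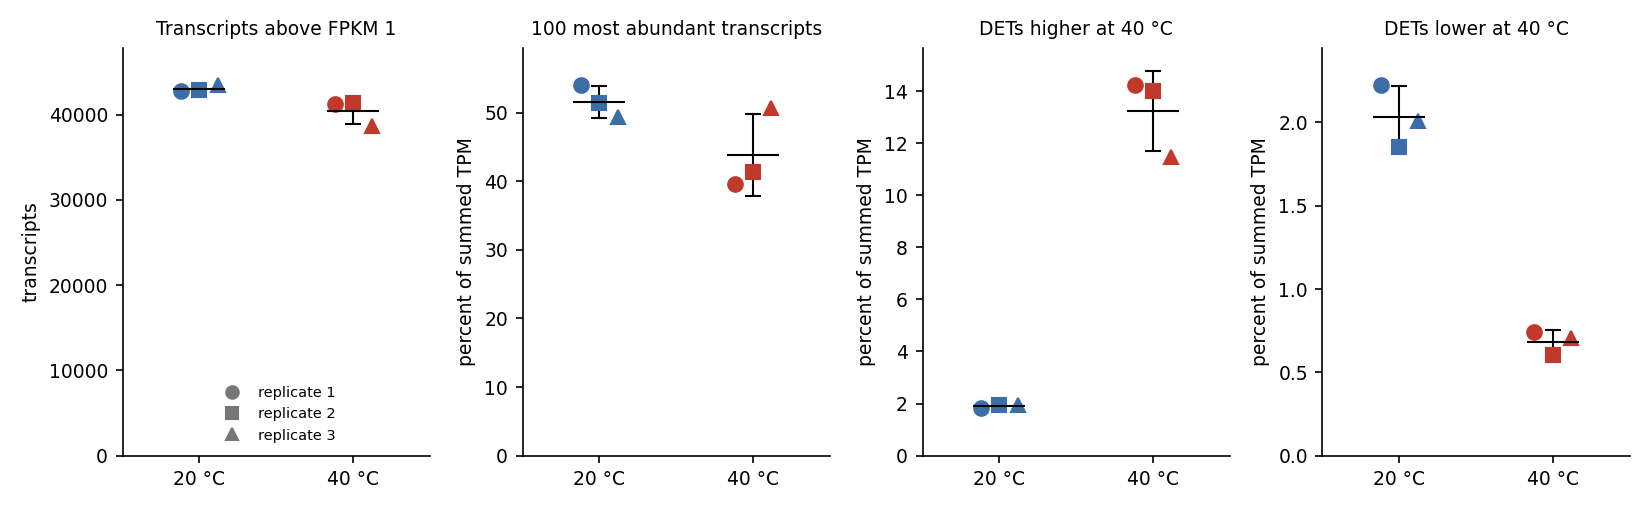
Values per plant at 20 °C (blue) and 40 °C (red), with the marker shape giving the replicate and the black bar the mean ± SD of 3 plants. The panels show the number of transcripts above an FPKM of 1, and the percent of summed TPM in the 100 most abundant transcripts, in the 3485 DETs higher and in the 2098 DETs lower at 40 °C. Heated plant 3 (red triangle) lies among the controls for the 100 most abundant transcripts, but its share in the higher DETs, 11.4%, is far above the controls.

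Fewer transcripts were above an FPKM of 1 after heat. FPKM leaves out the TMM factors, which were 1.02, 1.05 and 1.09 in the controls and 1.01, 1.02 and 0.836 in the heated plants. Whether the difference holds on a scale with these factors was not tested. The controls had 42733, 42889 and 43486 transcripts above an FPKM of 1 and the heated plants 41286, 41327 and 38710. The groups did not overlap, and the exact two-sided permutation test gave p = 0.1, the smallest p that 3 against 3 plants allow. Above an FPKM of 5 the ranges overlapped, 16139 to 17169 in controls and 14826 to 16919 in heated plants (exact permutation p = 0.8). The mean difference above an FPKM of 1 was -2595 transcripts, and -1729.5 without heated plant 3.

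By size, about as many higher DETs changed between 2- and 4-fold as beyond. In this class there were 1808 higher DETs (51.9%), followed by 781 between 4- and 8-fold, 621 between 8- and 32-fold and 275 above 32-fold. Among lower DETs the small changes prevailed more, with 1548 (73.8%) between 2- and 4-fold, 384 between 4- and 8-fold, 114 between 8- and 32-fold and 52 above 32-fold. Of the changes above 32-fold, 194 of the 275 higher and 16 of the 52 lower DETs had counts at both temperatures, and for the others the fitted fold has no firm value. The median fold change was 3.86 for higher and 2.85 for lower DETs. Each heated plant was also set alone against the control mean, in FPKM plus 0.1 and without TMM factors. Over the 3404 higher DETs with counts at both temperatures, the median log2 change was 1.74, 1.78 and 1.55 in plants 1, 2 and 3. The lower value of plant 3 is on that scale, which leaves out its TMM factor of 0.836.

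The few strong inductions carried more of the pool than the many weak ones. The 275 DETs above 32-fold rose from 0.107% to 4.70% of the mean summed TPM, while the 1808 DETs between 2- and 4-fold rose from 1.18% to 2.90%. The total gain of the higher DETs was 11.3 percentage points. Of this gain, 9.77% came from the 10 transcripts that gained most, 50.5% from the 100 that gained most and 83.1% from 500. Higher DETs were shorter and lower DETs longer than average, with median lengths of 1460 and 1699.5 bases against 1562 bases for all tested transcripts. The higher DETs above 32-fold had a median length of 1080 bases, and the lower DETs above 32-fold 2030 bases.

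The steepest rises were ranked among transcripts with at least 10 counts in every control and a mean FPKM of at least 5 at 40 °C. From fewer counts TraesCS4A02G092800.1, with 0.44, 0.68 and 0.00 in the controls and 32.8, 30.2 and 28.5 in the heated plants, had a larger fitted log2 fold change of 6.45, and TraesCS7D02G179500.1 had 6.36. TraesCS7A02G360400.1, on chromosome 7A, had FPKM values of 3.35, 4.11 and 2.74 in the controls and 228, 330 and 190 in the heated plants. TraesCS7B02G267300.1, on chromosome 7B, had 3.66, 4.06 and 2.85 in the controls and 227, 327 and 189 in the heated plants. In FPKM, heated plant 2 was the highest and plant 3 the lowest for both, and no heated plant came near a control. Their log2 fold changes were 6.32 ± 0.26 (approximate SE, n = 3 per group; edgeR FDR = 5.2e-06) and 6.26 ± 0.25 (edgeR FDR = 4.8e-06). The expected counts of both were not whole numbers, which means that fragments fitting several transcripts had been divided among them.

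TraesCS7A02G188300.1 rose from 1.56, 1.99 and 1.68 to 145, 124 and 106. TraesCS5D02G266000.1 rose from 2.42, 1.87 and 2.13 to 142, 158 and 133. TraesCS3B02G049800.1 rose from 4.84, 5.55 and 6.14 to 339, 379 and 309. The heated plants of these 3 transcripts lay close together, and plant 3 had the lowest FPKM in each. The log2 fold changes were 6.30 ± 0.17, 6.22 ± 0.17 and 6.11 ± 0.15 (SE; edgeR FDR = 2.2e-06 for each). TraesCS2B02G087400.1 started lowest, at 1.62, 1.42 and 0.57, and reached 78.9, 88.5 and 61.1, a log2 fold change of 6.10 ± 0.32 (edgeR FDR = 1.9e-05). The other members of this set of 8, TraesCS3D02G115200.1 and TraesCS7D02G179300.1, lie in runs of neighbouring genes described further on.

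The largest gains in level were made by transcripts that were already moderate in the control. TraesCS3D02G046300.1, a transcript of 765 bases on chromosome 3D, had FPKM values of 33.4, 44.7 and 31.7 in the controls and 1810.0, 1889 and 1546 in the heated plants. TraesCS4B02G212300.1 had 41.5, 44.3 and 34.0 in the controls and 1318, 1328 and 1180.4 in the heated plants. TraesCS6D02G322300.1 had 35.7, 35.1 and 34.9 in the controls and 1280.3, 1264 and 1134 in the heated plants. The heated values were tight, with plant 3 again the lowest in FPKM, a scale without the TMM factors. The log2 fold changes were 5.72 ± 0.20, 5.14 ± 0.19 and 5.27 ± 0.15 (edgeR FDR = 3.1e-06, 3.3e-06 and 2.2e-06). At 30 °C the same transcripts stood between, at 499 to 539, 474 to 518 and 492 to 524.

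Some transcripts had no fragment in any control. TraesCS4A02G226700.1 was at 0 in the 3 controls and at 16.8, 17.4 and 14.2 in the heated plants, a tight group. Against a floor of 3 counts over the group it was at least 281-fold higher (edgeR FDR = 2.4e-05). TraesCS7A02G177700.1 reached 51.3, 35.5 and 12.9, at least 518-fold higher (edgeR FDR = 0.0017), and its heated plants differed several-fold from each other. TraesCS1A02G381400.1 reached 21.2, 30.8 and 38.1, at least 37.9-fold higher (edgeR FDR = 0.0027), and here heated plant 3 was the highest. TraesCS1B02G011400.1, with 12.5, 16.4 and 3.63, rested on few fragments and was at least 6.48-fold higher (edgeR FDR = 0.043). Its call was lost without any of 5 of the 6 plants, with FDR between 0.085 and 0.13 (edgeR). Over all tested transcripts, 187 had no count in any control and 81 of them were DETs, while 156 had no count in any heated plant and 36 were DETs. The former could pass the filter only through their heated level, and the latter only through their control level.

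The deepest falls were ranked among transcripts with a mean FPKM of at least 5 at 20 °C, so deeper falls from lower levels, such as TraesCS1B02G048500.1 with a mean FPKM of 1.83 at 20 °C and a log2 fold change of -6.07, were not named. TraesCS5D02G200700.1 had FPKM values of 9.28, 3.15 and 5.85 in the controls and 0.09, 0.07 and 0.25 in the heated plants. TraesCS5B02G193000.1 had 6.15, 4.22 and 6.35 in the controls and 0.00, 0.22 and 0.20 in the heated plants. TraesCS1A02G411600.1 had 10.3, 10.3 and 12.7 in the controls and 0.00, 0.47 and 0.68 in the heated plants. No heated plant overlapped with a control. Their log2 fold changes were -5.31 ± 0.63, -5.06 ± 0.60 and -4.67 ± 0.65 (edgeR FDR = 0.0014, 0.0014 and 0.0029). TraesCS7A02G027100.1 went from 7.12, 8.32 and 4.98 to 0.00, 0.38 and 0.00, a log2 fold change of -5.51 ± 0.79 (edgeR FDR = 0.0034).

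TraesCS3B02G047300.1 had 13.7, 12.2 and 7.21 in the controls and was at 0 in all heated plants, at least 303-fold lower (edgeR FDR = 0.00043). It is 1 of 2 transcripts of its gene, and with the counts summed over the gene the log2 fold change was -0.14 (edgeR FDR = 0.44). TraesCS3B02G523500.1 went from 3.50, 7.42 and 10.3 to 0 in all heated plants, at least 8.87-fold lower (edgeR FDR = 0.023). That call was lost without control plant 2 (edgeR FDR = 0.069) or control plant 3 (edgeR FDR = 0.076).

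Among lower DETs, the largest losses in FPKM were of abundant transcripts. TraesCS2A02G417500.1 had FPKM values of 1201, 949 and 1059 in the controls and 378, 346 and 514 in the heated plants. TraesCS2B02G436400.1 had 1189, 879 and 953 in the controls and 343, 315 and 448 in the heated plants. TraesCS2D02G414800.1 had 1193, 908 and 973 in the controls and 359, 352 and 479 in the heated plants. These 3 transcripts, from the A, B and D copies of chromosome group 2, followed the same order of plants, with control plant 1 highest and heated plant 3 highest of the heated ones. The log2 fold changes were -1.20 ± 0.25, -1.28 ± 0.25 and -1.20 ± 0.24 (edgeR FDR = 0.016, 0.012 and 0.014), and the first call was lost without heated plant 1 (edgeR FDR = 0.055).

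TraesCS5D02G188400.1 went from 807, 588 and 604 to 277, 235 and 352, a log2 fold change of -1.04 ± 0.26 (edgeR FDR = 0.030). TraesCS1D02G206300.1 went from 363, 166 and 155 to 44.1, 16.1 and 68.7, a log2 fold change of -2.22 ± 0.60 (edgeR FDR = 0.041). Both calls were near the threshold. Without any of 5 of the 6 plants, all but heated plant 3, the FDR lay between 0.052 and 0.090 for TraesCS5D02G188400.1 and between 0.059 and 0.11 for TraesCS1D02G206300.1 (edgeR).

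**Figure D2:**
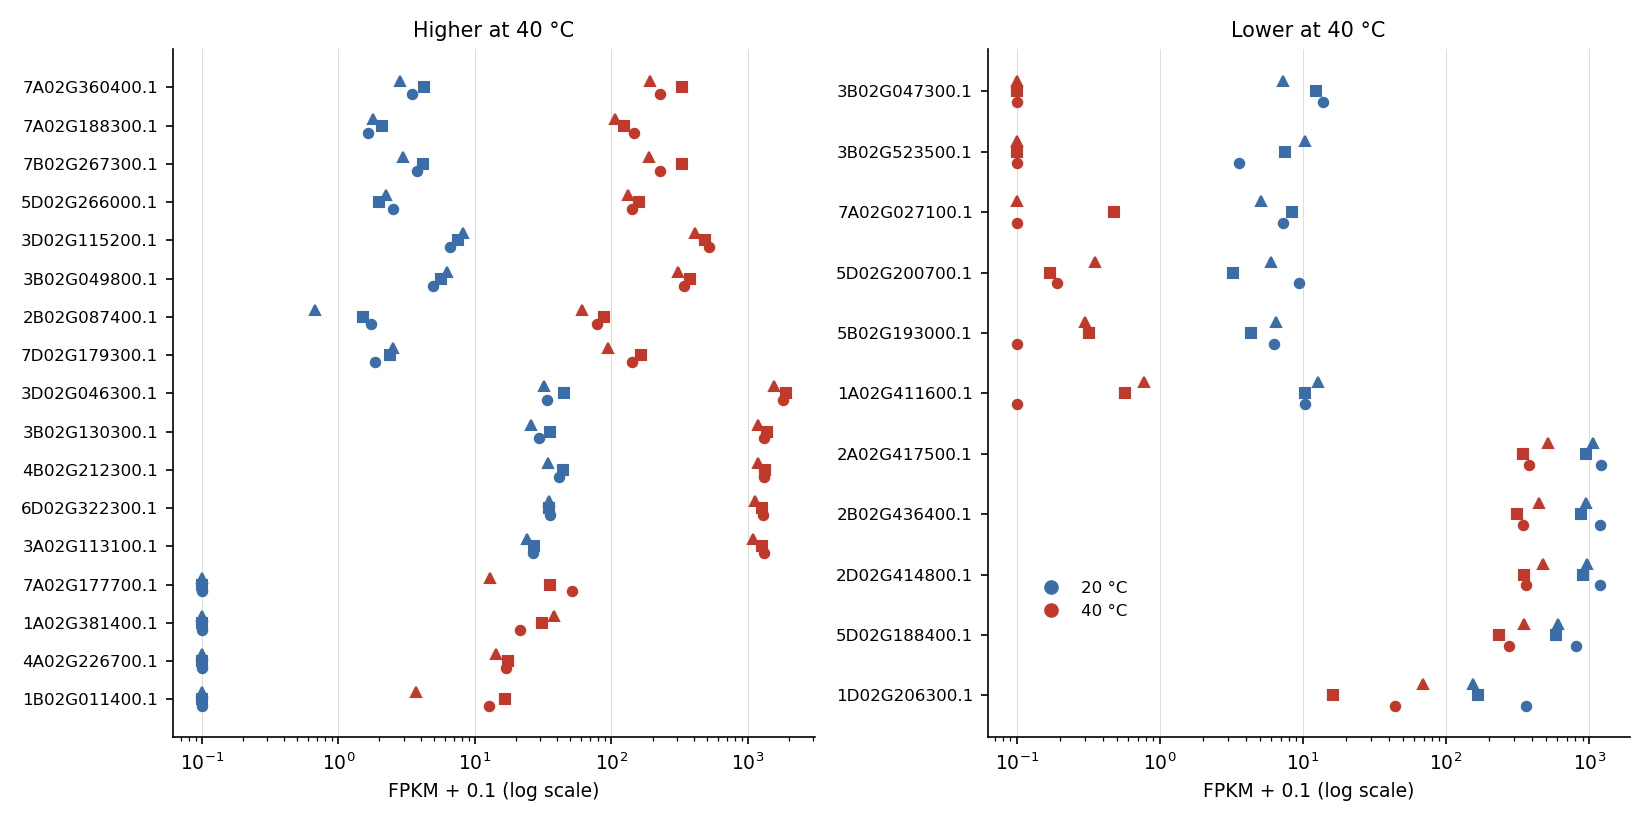
FPKM plus 0.1 on a log axis for each plant at 20 °C (blue) and 40 °C (red), with circles, squares and triangles for replicates 1, 2 and 3. The left panel shows the transcripts with the steepest rise, the largest gains and those at 0 in all controls, and the right panel those with the deepest falls and the largest losses; identifiers are printed without the prefix TraesCS. The groups do not overlap in any row; this was required of every kind but those at 0 in all controls.

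The named transcripts that rose at 40 °C mostly did so beyond their level at 30 °C. Tested between 40 and 30 °C, where 3.02% of 44638 transcripts were higher and 0.533% lower at 40 °C, 31 of the 34 named higher transcripts were again called higher. Of the 11 named lower transcripts, 9 could be tested between 40 and 30 °C and 1 was called lower. Both comparisons share the plants at 40 °C.

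By subgenome, the D copies were called higher most often, by a small margin. Higher DETs made up 7.32% of the tested transcripts on A (1110 of 15174), 7.35% on B (1121 of 15242) and 8.02% on D (1216 of 15165). Lower DETs made up 4.48% on A, 4.61% on B and 4.54% on D. Of the 669 transcripts on unplaced sequence, 5.68% were higher and 4.04% lower. The D subgenome kept the highest share of higher DETs under each of the 10 other settings tried, and the order of the lower shares was not kept. Since transcripts are not replicates, these shares carry no test.

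The same tilt appeared in the pool of RNA. The D subgenome held 28.1, 28.5 and 28.8% of the summed TPM in the controls and 29.8, 31.4 and 30.5% in the heated plants, with no overlap. The difference was 2.11 percentage points (exact permutation p = 0.1, the smallest possible). Unplaced sequence held 17.9, 17.1 and 16.3% in the controls and 14.3, 13.0 and 14.7% in the heated plants (difference -3.10, exact permutation p = 0.1). By expected counts, which are not scaled by length, the unplaced difference was -1.66 percentage points. The A and B shares overlapped between the groups, with 24.3 to 25.1% against 24.1 to 26.2% for A and 29.6 to 29.8% against 29.5 to 30.6% for B. Their means differed by 0.68 and 0.30 percentage points. All shares add up to a fixed total, so the lower unplaced share in itself raises the placed shares. In expected counts the B share did not overlap, with 30.64 to 30.67% in the controls and 30.71 to 31.45% in the heated plants. Over the 25 such comparisons of subgenomes and chromosomes, 11 did not overlap, and with adjustment over them none could pass a threshold of 0.05.

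The 5 unplaced transcripts that lost most FPKM were very abundant, and none of them was a DET, with log2 fold changes of -0.19 to -0.40. The largest, TraesCSU02G260700.1, at 378 bases, had FPKM values of 24611, 23899 and 24384 in the controls and 18797, 19465 and 18677 in the heated plants. Its groups did not overlap, but its log2 fold change was -0.19 ± 0.16 (edgeR FDR = 0.46). FPKM and TPM are shares of a total, while TMM factors rescale the libraries, so the same counts give a larger fall in the first than in the second.

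The highest share on a chromosome exceeded the lowest 1.26 times for higher and 1.37 times for lower DETs, and 2.66 and 8.75 times among transcripts with whole counts only. The share of higher DETs ran from 6.80% on 1D to 8.57% on 3D, with 2D at 8.48% and 7D at 8.26% next. Within 6 of the 7 chromosome groups, all but group 1, the D chromosome had the highest share. The lower DETs ran from 3.78% on 3A to 5.16% on 4A, and the D chromosome led in 2 of the 7 groups. Chromosome 3D came first under 1 of the 10 other settings, so the order of the chromosomes is not firm.

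**Figure D3:**
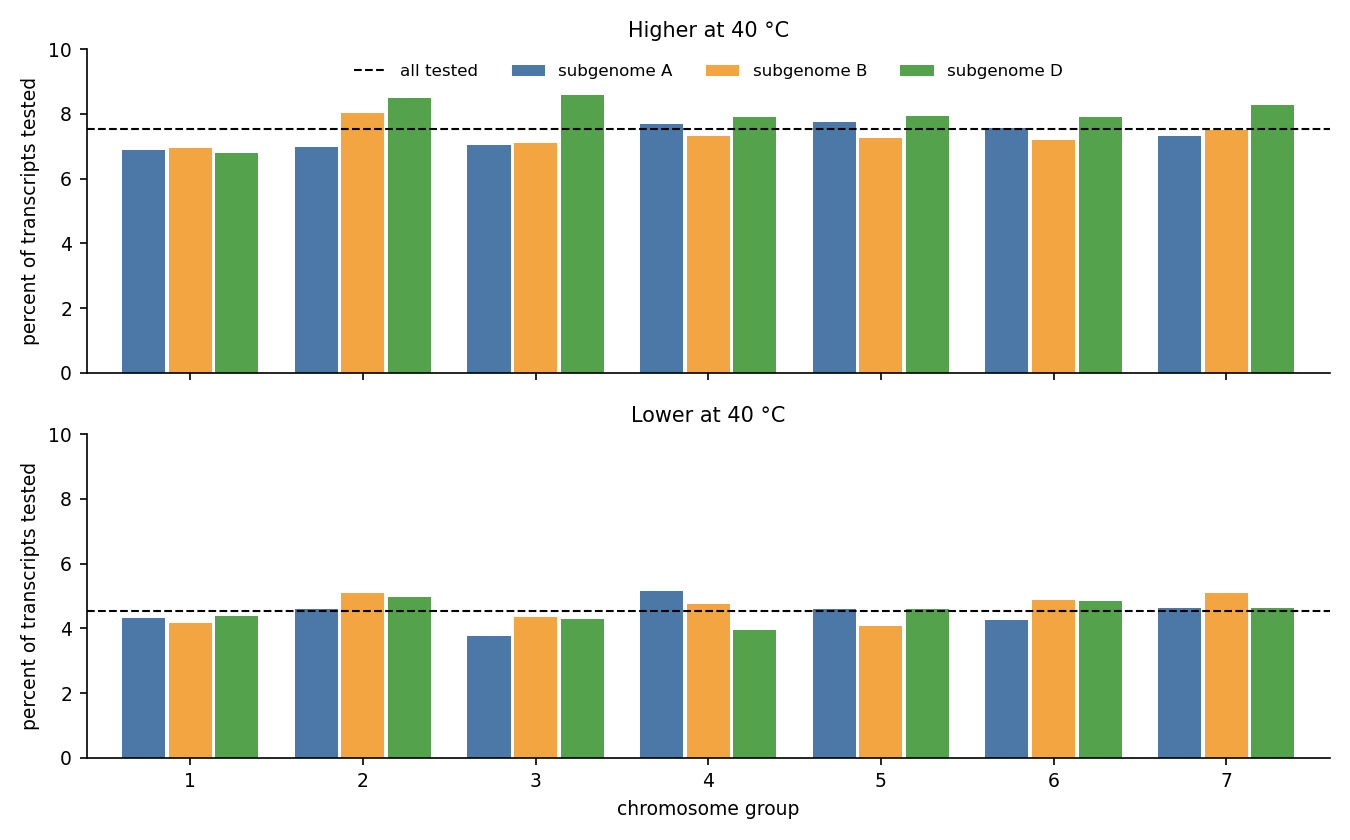
Percent of tested transcripts that were higher (top) or lower (bottom) at 40 °C, for the A (blue), B (orange) and D (green) chromosome of each of the 7 groups. The dashed lines give the shares over all tested transcripts, 7.54% and 4.54%. Among higher DETs the D bar is the tallest in 6 of 7 groups, and the chromosomes range from 6.80% to 8.57%.

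By level rather than number, the shares of 3A, 3B, 3D, 4B, 4D, 5D and 7B were higher and those of 6A and 6B lower in every heated plant than in any control. The lower unplaced share enters these shares too. Chromosome 3D held 3.12, 3.18 and 3.44% of the summed TPM in the controls and 4.23, 4.69 and 4.20% in the heated plants. Chromosome 3B held 2.36, 2.38 and 2.55% against 3.18, 3.24 and 2.81%, and 4D held 2.47, 2.30 and 2.46% against 3.08, 3.05 and 2.85%. None of these groups overlapped (exact permutation p = 0.1 for each). The shares of 6A and 6B differed by -0.36 and -0.44 percentage points. Chromosome 4A overlapped (exact permutation p = 0.2), as did 1B, which differed by -0.95 points (exact permutation p = 0.3). Of the 100 higher DETs with the largest gain in pool share, 16 were on 3D, 10 on 3B and 10 on 4D. These chromosomes held 2356, 2391 and 1874 of the 46250 tested transcripts, and 202, 170 and 148 of the 3485 higher DETs. By subgenome 40 were on D, 33 on B, 25 on A and 2 on unplaced sequence. Of all tested transcripts, 15165 were on D, 15242 on B, 15174 on A and 669 on unplaced sequence.

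Genes with a higher DET lay next to each other more often than their share over all ordered genes. With the tested genes put in order along each chromosome, the gene after one with a higher DET also had a higher DET in 13.1% of cases, while 7.86% of the 42143 ordered genes had one. For lower DETs the shares were 6.76% and 4.88%. There were 60 runs of at least 3 neighbouring genes that were all higher, holding 214 genes, and 16 such runs of lower genes, holding 50 genes. The longest higher runs had 8 genes and the longest lower runs 4. With untested genes counted as breaks, 31 higher and 5 lower runs were left, and without heated plant 3 there were 52 and 24. The 91 genes in runs of 4 or more accounted for 16.8% of the whole gain in pool share.

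The longest runs lay on chromosome group 3. On 3B, 8 tested genes in a row from TraesCS3B02G130300 to TraesCS3B02G131300 had log2 fold changes of 4.70 to 6.05, with mean FPKM of 2.04 to 32.4 at 20 °C and 95.3 to 1289 at 40 °C. The most abundant, TraesCS3B02G130300.1, had 29.5, 35.3 and 25.5 in the controls and 1305, 1382 and 1179.6 in the heated plants, a log2 fold change of 5.56 ± 0.19 (edgeR FDR = 3.0e-06). On 3D, 8 genes from TraesCS3D02G114700 to TraesCS3D02G115400 had log2 fold changes of 4.98 to 6.15. The genes of a run moved by similar folds, and plant 3 had the lowest FPKM of the heated plants for each transcript named here. Within the 3D run TraesCS3D02G115200.1 rose most, from 6.43, 7.42 and 8.08 to 522, 482 and 412 (log2 fold change 6.15 ± 0.15; edgeR FDR = 2.2e-06). TraesCS3D02G115100.1 was the most abundant, with 16.4, 17.4 and 14.0 in the controls and 981, 952 and 752 in the heated plants. The run on 3A had 5 genes, but only the first 3 were strongly induced, TraesCS3A02G113100.1 from 26.4, 27.2 and 23.99 to 1301, 1262 and 1086, while the others had log2 fold changes of 1.16 and 1.52.

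A second set lay on chromosome group 7. On 7B, 7 genes from TraesCS7B02G082900 to TraesCS7B02G083500 had log2 fold changes of 4.79 to 5.85, and on 7D, 7 genes from TraesCS7D02G179000 to TraesCS7D02G179600 had 4.46 to 6.36. TraesCS7B02G083500.1 had FPKM values of 9.59, 9.43 and 7.61 in the controls and 350, 400.3 and 261 in the heated plants. TraesCS7D02G179300.1 had 1.76, 2.30 and 2.41 in the controls and 141, 165 and 93.9 in the heated plants, a log2 fold change of 6.08 ± 0.21 (edgeR FDR = 3.0e-06). TraesCS7D02G179600.1 had 2.46, 3.23 and 3.03 in the controls and 171, 181 and 119 in the heated plants, a log2 fold change of 5.88 ± 0.17 (edgeR FDR = 2.2e-06). Plant 3 clearly had the lowest FPKM of the heated plants in all of these. The highest mean FPKM in the 7B run was 8.88 at 20 °C and 337 at 40 °C, against 32.4 and 1289 in the 3B run.

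Shorter strong runs of 4 genes were found on 3D, 4A and 4D. TraesCS3D02G045500.1, the most abundant of its run, rose from 16.6, 19.6 and 14.0 to 849, 903 and 768. TraesCS4A02G092900.1 rose from 24.8, 27.1 and 22.6 to 1000.6, 963 and 844. TraesCS4D02G212500.1 rose from 12.7, 17.7 and 12.7 to 812, 799.5 and 668. All 3 separated fully from the controls, with log2 fold changes of 5.79 ± 0.20, 5.39 ± 0.15 and 5.87 ± 0.20 (edgeR FDR = 3.0e-06, 2.2e-06 and 3.0e-06). The expected counts in these strong runs were not whole numbers, with fragments divided among similar transcripts, so the level of a single copy is less certain than that of the run.

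Other runs of 4 joined strong genes to weaker neighbours. On 7B, TraesCS7B02G064000.1 rose from 1.77, 1.08 and 1.35 to 54.5, 66.9 and 57.1 (log2 fold change 5.55) and the next gene's TraesCS7B02G064100.1 from 1.08, 1.1 and 0.59 to 12.5, 15.3 and 13.1 (log2 fold change 4.02), while the outer genes of the run had log2 fold changes of 1.36 and 1.09. On 2A, TraesCS2A02G266000.1 rose from 0.33, 0.53 and 0.36 to 13.1, 12.2 and 8.31 (log2 fold change 4.87), and the 3 genes before it had between 1.12 and 1.65. In contrast, the 4 genes from TraesCS5B02G490600 to TraesCS5B02G490900 on 5B had whole counts throughout and log2 fold changes of 4.06 to 4.80. TraesCS5B02G490600.1, its most abundant transcript, rose from 0.83, 0.93 and 0.59 to 20.2, 17.4 and 13.2.

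The most abundant transcripts of the remaining runs of 4 differed widely in level. TraesCS5B02G495500.2 rose from 10.1, 11.3 and 10.9 to 175, 175 and 158 (log2 fold change 4.12), and TraesCS4A02G095500.1 from 1.94, 1.71 and 0.83 to 31.2, 32.9 and 30.8 (log2 fold change 4.54). The other 6 were TraesCS2B02G141900.2, TraesCS2B02G592700.1, TraesCS2D02G122500.1, TraesCS4A02G405300.1, TraesCS4D02G303400.1 and TraesCS5D02G180200.1. Their log2 fold changes ran from 2.004 for TraesCS2B02G592700.1 to 3.09 for TraesCS4A02G405300.1, and their mean FPKM at 40 °C from 4.83 for TraesCS2D02G122500.1 to 28.0 for TraesCS2B02G592700.1.

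**Figure D4:**
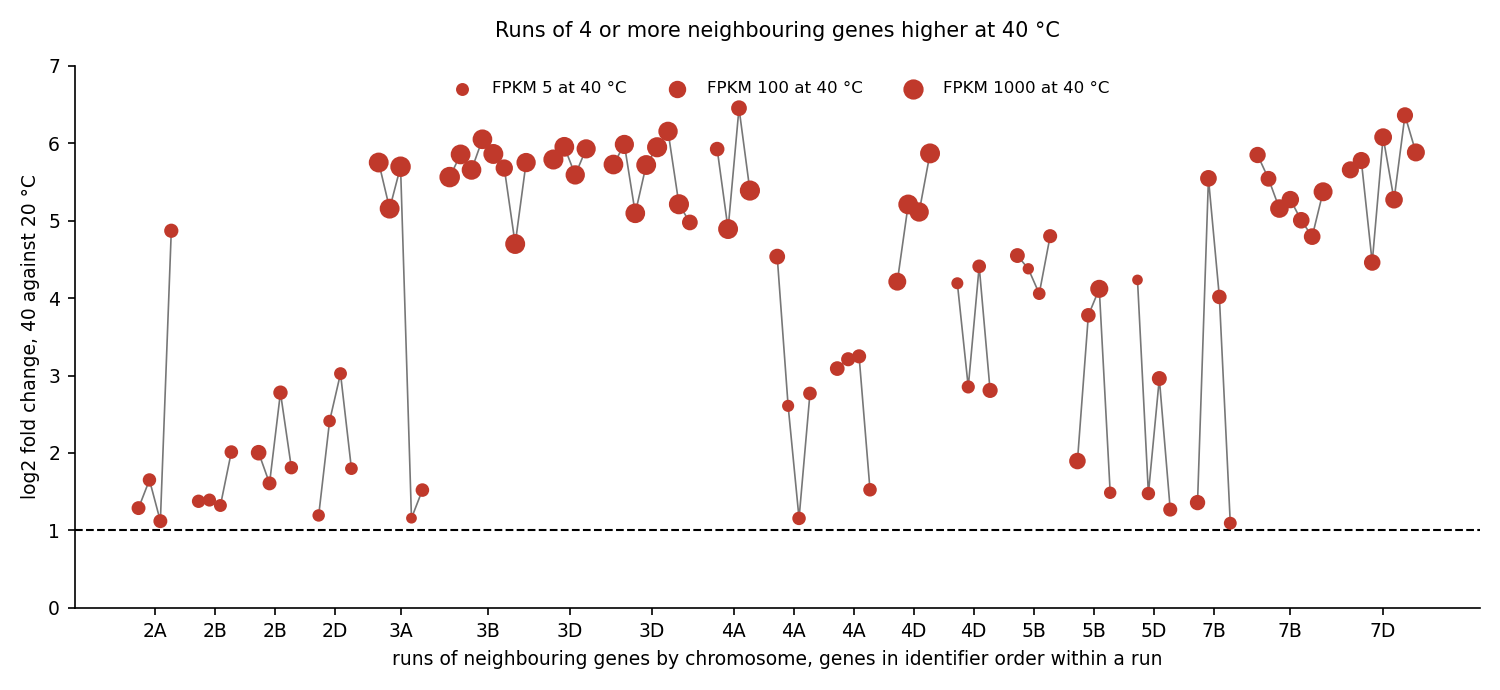
Log2 fold change of each gene (its called transcript with the highest FPKM at 40 °C) in the 19 runs of 4 or more neighbouring genes higher at 40 °C, in gene order within a run, with the chromosome below. Dot area grows with the mean FPKM at 40 °C and the dashed line marks a 2-fold change. The runs of 7 or 8 genes, on 3B, 3D, 7B and 7D, stay between 4.46 and 6.36. Of the runs of 4 genes on these chromosomes, the one on 3D spans 5.59 to 5.95 and the one on 7B 1.09 to 5.55.

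By starting level, of 189 tested transcripts at an FPKM of 0 in the controls 43.4% were higher, and of 2962 above 0 and up to 1 it was 32.3%. Both classes could enter the test only through their level at 40 °C, so their shares are raised by the filter, and no lower call was made there. Among transcripts that started above 1, the share of higher DETs was 5.65% from 1 to 5, 6.16% from 5 to 20, 5.02% from 20 to 100 and 1.85% above 100 (14 of 758). The share of lower DETs in the same classes was 5.20, 4.33, 4.66 and 3.17%. Without heated plant 3 it was 7.78% above 100. The class from 1 to 5 holds transcripts that passed the filter only through 20 °C. Among those above 1 at both temperatures, 7.18% from 1 to 5 were higher and 1.62% lower, against 6.19% and 4.09% from 5 to 20. This restriction takes out transcripts that fell below 1 at 40 °C. In the class from 1 to 5 it left 338 of 1375 lower calls and all 1495 higher calls. The split in that class is therefore shaped by the filter, and nothing is read from it.

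The control values enter both the class and the fold change, so the classes were also set by control plant 1 alone and the test run on the other 5 plants. Higher DETs then made up 16.8% at 0, 14.6% from 0 to 1, 5.52% from 1 to 5, 6.17% from 5 to 20, 5.24% from 20 to 100 and 1.42% above 100. The filter still used all plants at both temperatures, so control plant 1 was left out of the fit but not of the filter. The classes at 0 and from 0 to 1 again entered largely through their level at 40 °C. Nothing is read from the shares of these classes. Restricted to the 37415 transcripts above an FPKM of 1 at both temperatures, 2446 were higher and 1030 lower. Of 5684 above 1 only at 20 °C, 1068 were lower, and of 3151 above 1 only at 40 °C, 1039 were higher. These sets are defined by the levels compared, so the direction follows the filter, with 0 higher in the former and 0 lower in the latter. The restriction to both temperatures in turn takes out transcripts that crossed 1. These counts are a description only.

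**Figure D5:**
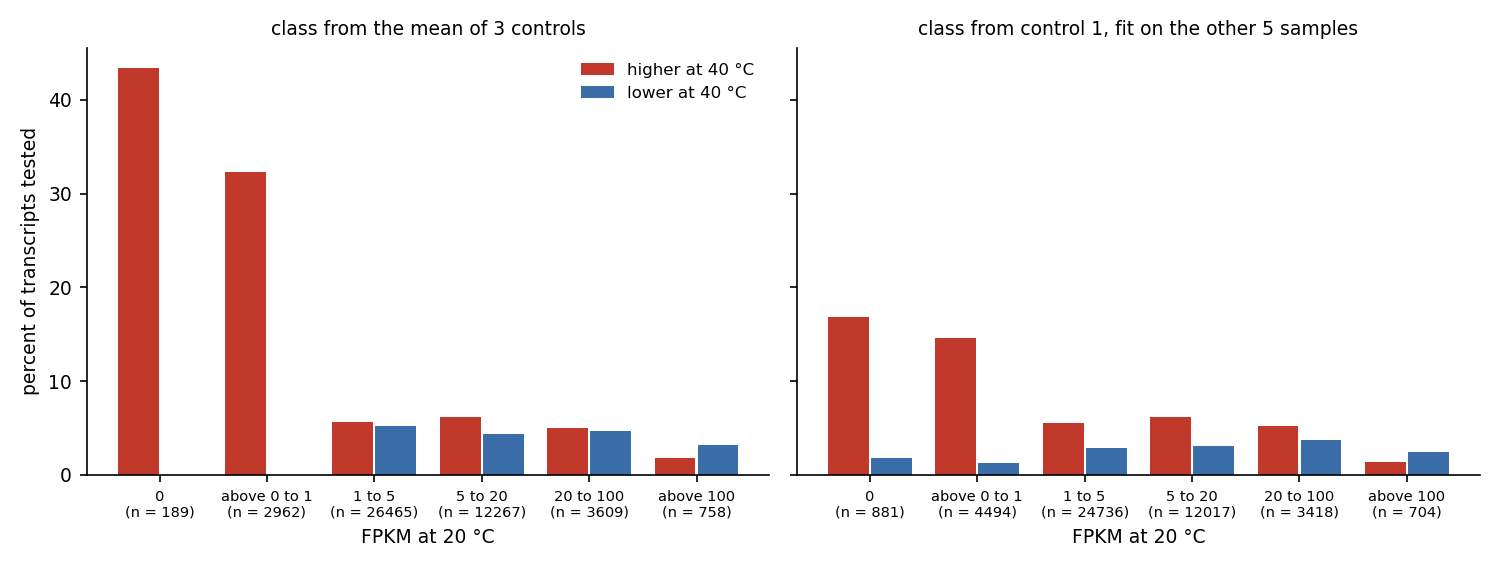
Percent of tested transcripts higher (red) or lower (blue) at 40 °C by FPKM at 20 °C, with the number tested under each class. On the left the class comes from the mean of 3 controls, on the right from control plant 1 with the test on the other 5 plants. Above 100 the share higher is low on both sides, at 1.85% and 1.42%. The classes at 0 (43.4% and 16.8% higher) and above 0 to 1 entered only or largely through their level at 40 °C. Nothing is read from their bars.

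The most abundant transcripts of the grain were not DETs with all 6 plants, and 2 of them were lower DETs without heated plant 3. None of the 100 with the highest mean FPKM at 20 °C (1769 to 24298) was called in either direction, and their log2 fold changes ran from -0.75 to 0.61, with a median of -0.13. Of the 100 most abundant at 40 °C, 91 were among the 100 at 20 °C and 1 was a DET. Transcripts above 100 at 20 °C together held 69.8, 68.4 and 66.7% of the summed TPM in the controls and 55.8, 57.2 and 65.6% in the heated plants. The ranges did not overlap (difference -8.76 percentage points), but heated plant 3 was close to the controls. These classes were set by the mean of the same 3 controls, so their shares are a description and carry no test. Without heated plant 3 the difference was -11.8 percentage points. Transcripts of 5 to 20 went from 10.5, 10.8 and 11.4% to 16.4, 15.9 and 12.9%. Those of 20 to 100 overlapped, with 12.6 to 14.4% in the controls and 14.2 to 18.6% in the heated plants.

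Transcripts of genes with a single annotated transcript were called slightly more often than others. Of 32156 such transcripts 7.93% were higher and 5.08% lower, and of 8582 with 2 annotated transcripts 6.86% were higher and 3.18% lower. In 12 genes 1 transcript was higher and another lower. In TraesCS7D02G338700, the first transcript rose from a mean FPKM of 1.17 to 4.12 and the second fell from 3.08 to 0.73. The first thereby went from 27.5% to 84.0% of the gene's level. In TraesCS3A02G383400, transcript 3 went from 34.9% to 90.0% and transcript 1 from 63.5% to 10.0%. The transcript that rose went from under to over 50% of its gene in 5 of the 12 genes, and in 4 of the 12 it was at 0 in the control mean.

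Only 2 gene families are named in the deposited tables. CBF genes encode C-repeat binding factors, transcription factors best known in cereals for activating cold-response genes. Of 38 CBF genes, all on 5B and 5D, 16 had a count in any of the 9 samples and 4 were tested, with 2 higher and 1 lower, beside 7.54% higher and 4.54% lower over all tested transcripts. TaCBFIIIa-6.1 (TraesCS5B02G313000.1) had FPKM values of 0.32, 0.08 and 0.65 in the controls and 13.6, 14.4 and 13.7 in the heated plants. TaCBFIIIa-D6 (TraesCS5D02G318900.1) had 0.08, 0.32 and 0.08 in the controls and 6.15, 10.3 and 9.18 in the heated plants. Both were almost silent at 20 °C and passed the filter only through 40 °C. Their log2 fold changes were 5.44 ± 0.43 (edgeR FDR = 0.00017) and 5.82 ± 0.50 (edgeR FDR = 0.00026).

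TaCBFIVd-B9 (TraesCS5B02G310800.1) went the other way, from 2.39, 3.59 and 2.84 to 1.45, 0.76 and 0.58. It passed the filter only through 20 °C, with a mean FPKM of 2.94 there and 0.93 at 40 °C. Its direction, like that of the 2 higher members, therefore follows the filter. Its log2 fold change was -1.53 ± 0.39 (edgeR FDR = 0.033), and the call was lost without any of 5 of the 6 plants (edgeR FDR between 0.063 and 0.10). TaCBFIVd-B22b (TraesCS5B02G311300.1) had 3.89, 3.33 and 5.09 in the controls and 3.22, 3.08 and 3.35 in the heated plants, which overlapped (log2 fold change -0.19, edgeR FDR = 0.65).

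NLR genes encode intracellular immune receptors with nucleotide-binding and leucine-rich repeat domains. Of 201 NLR genes, 6 transcripts were tested, 2 were higher and 4 were not called, beside the same 7.54% and 4.54%. The 2 higher passed the filter only through 40 °C and the 4 others only through 20 °C, so the directions follow the filter. TraesCS1A02G028500.1 (BST_chr1A_nlr_14) had 0.29, 0.22 and 0.31 in the controls and 2.37, 2.40 and 1.94 in the heated plants. TraesCS1D02G259300.1 (BST_chr1D_nlr_42) had 0.42, 0.33 and 0.23 in the controls and 3.91, 3.12 and 3.55 in the heated plants. Both stayed low but separated fully, with log2 fold changes of 3.16 ± 0.21 (edgeR FDR = 6.0e-05) and 3.56 ± 0.26 (edgeR FDR = 0.00011). The 4 not called had log2 fold changes of -0.26 to -1.21. The last, TraesCS1D02G029200.1 (edgeR FDR = 0.090), was called lower with library size, with gene sums and without heated plant 3 (edgeR FDR = 0.042, 0.039 and 0.044), and TraesCS1D02G029100.1 with library size (edgeR FDR = 0.010).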

How the data were processed

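Grain RNA of 9 wheat plants was sequenced, 3 at each temperature. The authors trimmed reads with Trimmomatic, mapped them on IWGSC v1.0 and ran RSEM per sample. The authors deposited the expected count, which is not normalized, TPM and FPKM, which correct for length and library total, and IsoPct, the percent of a gene's level on each transcript. Fragments fitting several transcripts were divided by RSEM. Of the tested transcripts, 11.2% had whole counts (within 0.005) in all 6 samples. The authors' own tests used edgeR 3.24.3.

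Expected counts were rounded, and edgeR 4.0.16 (limma 3.58.1, R 4.3.3) with TMM factors and the quasi-likelihood test was fitted to the 6 samples without a replicate block. FDR was Benjamini-Hochberg over all tested transcripts. SE is the absolute log2 fold change divided by the square root of F. Fold bounds use 3 counts over the group. Per-sample shares, other than those of sets chosen by the contrast or by the control level, were tested by exact two-sided permutation (scipy 1.17.1). Chromosome, subgenome and gene order were read from the identifiers. No identifier matched the RefSeq gene table, so no gene lists, markers or sequences were used.

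Named were the 8 largest fold rises (at least 10 counts in every control, FPKM at least 5 at 40 °C), the 6 deepest falls (FPKM at least 5 at 20 °C), the 5 largest FPKM gains and 5 largest losses, the 4 highest DETs at 0 in controls, and the top transcript of each run of 4 or more, with the groups not overlapping in all but the last 2 kinds. The named families and the unplaced transcripts were added after their values were seen. Members and lists were chosen with earlier results of these data known. Alternatives are given at the end.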

Additional observations from a re-analysis of the deposited data

How the results depend on the processing

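The number of DETs was within 1.5 times 5583 under most alternatives, among them DESeq2 1.42.0 with 5986, gene sums with 6181, all 9 samples with 5860 and no filter with 4607. A stricter test against a 2-fold change (edgeR's glmTreat) left 2078, 1741 higher and 337 lower. Testing transcripts above an FPKM of 5 gave 3075, 2081 higher and 994 lower. Leaving out 1 plant gave 4371 to 5784 DETs, 2903 to 3283 higher and 1297 to 2501 lower. Same-numbered plants did not deviate together (correlations of -0.04, 0.07 and -0.06), so the numbers do not pair the plants, and a replicate block gave 4406 DETs, 2897 higher and 1509 lower.

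Leaving out 1 plant moved the share of lower DETs from 2.61 to 5.17% on A and from 2.72 to 5.52% on D. Among transcripts with whole counts only, the share of lower DETs on D was 7.09%, and the highest chromosome exceeded the lowest 2.66 times for higher and 8.75 times for lower DETs, against 1.26 and 1.37 times. Classes from the mean of all 6 plants gave 13.0% higher from 20 to 100 and 19.6% above 100, with 2.93% and 1.31% lower. Classes from control plant 1 gave 2.83% lower from 1 to 5, and no filter gave 2.54%. With library size the lower shares were 6.63% from 5 to 20, 7.32% from 20 to 100 and 5.01% above 100, and 1.19% were higher above 100. Leaving out heated plant 3, chosen for these results after seeing the data, gave 7.78% lower above 100. Over all annotated genes, 31 higher and 5 lower runs were left.

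Of 495 alternative fits of the 45 named transcripts, 472 kept the call and 23, in 6 transcripts, lost it. The stricter test against a 2-fold change, which left far fewer DETs, was not among these fits. The named CBF, NLR and unplaced transcripts are not among the 45. Calls of TaCBFIVd-B9, TraesCS1D02G029200.1 and TraesCS1D02G029100.1 changed under alternatives, as given above. TaCBFIVd-B9 also lost its call with a replicate block (edgeR FDR = 0.083). With 3 plants a group, exact tests cannot go below 0.1. Transcripts at a few fragments and copies that share fragments are the least certain.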
